A study of Mus musculus with 6 samples.

Results

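The 10 genes described here encode 8 cathepsins, the proteases of the lysosome (Ctsa, Ctsb, Ctsc, Ctsd, Ctsh, Ctsl, Ctss and Ctsz), and 2 cystatins, small proteins that inhibit cysteine cathepsins (Cst3 and Cstb). They were taken by symbol from the 17382 genes of the deposited table, and all 10 passed the filter on low values (at least 0.1 TPM in at least 3 libraries). TPM is a read count per unit of gene length, scaled so that each library sums to 1000000. RNA came from 6 cultures of C57BL/6 mouse bone marrow cells, from mice aged 2 months, kept for 3 days in medium with 10% serum and M-CSF at 40 ng/mL, a factor on which macrophages grow. The 3 libraries labelled CKO came from PD-L1 flox/flox mice with lysozyme-Cre, which is active in cells that use the lysozyme gene, and the 3 labelled WT from littermates with PD-L1 flox/flox alone, so both groups carry the floxed alleles. The labels call the cultures myeloid cells in biological triplicate and do not say whether marrow of several mice was pooled.

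The libraries held 52355560 to 77317973 reads. Cd274, which encodes PD-L1, did not check the labels: it had 19.2 to 29.2 TPM in the libraries labelled CKO and 15.5 to 23.7 TPM in WT, over the whole gene and not over the floxed exons alone. Lyz2, the gene in which this Cre commonly sits, had 13232 to 19354 TPM in the libraries labelled CKO and 26707 to 40358 TPM in WT. Of 9 macrophage and monocyte markers 8 are in the table, with summed levels of 4773 to 5840 TPM and 4916 to 5959 TPM in the libraries labelled CKO and WT. The libraries stood apart from one another across genotype: on the first principal component of 11607 other genes (54.9% of the variance), CKO 1, CKO 2 and WT 3 lay at negative values and CKO 3, WT 1 and WT 2 at positive values. These sets are called the negative and the positive side. They were read from the expression values, so levels on the 2 sides are described and not tested.

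Cathepsins are made as inactive precursors, carried to the lysosome mostly by mannose 6-phosphate receptors, and activated in its acid interior. Cathepsins B, C, H, L, S and Z cut with a cysteine, cathepsin D with a pair of aspartates and cathepsin A with a serine. In macrophages they break down engulfed protein, and some, above all cathepsin S, trim the invariant chain that guards MHC class II. Cystatin C (Cst3) is secreted and cystatin B (Cstb) stays in the cytosol, where each blocks cysteine cathepsins that leave the lysosome.

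Ctsd, Ctsb and Ctss were among the most abundant transcripts of the cultures, and none of the 10 genes differed between the groups beyond the spread between libraries. Together the 10 held 3.03% to 3.32% of all TPM in the libraries labelled CKO and 2.96% to 3.40% in WT. Ctsd ranked from 2 to 4 among all genes over the 6 libraries, Ctsb from 7 to 8 and Ctss from 14 to 23. Ctsh, the least abundant, ranked from 633 to 1304. By mean TPM the order was Ctsd, Ctsb, Ctss, Ctsz, Ctsl, Cstb, Cst3, Ctsa, Ctsc and Ctsh. Ctsz and Ctsl changed places between libraries (Ctsz higher in 3 of 6), as did Ctsl and Cstb (Ctsl higher in 3 of 6), and Ctsa exceeded Ctsc in 5 of 6. The other neighbours kept their order in 6 of 6 libraries. The order rests on the division by length: in CPM, which scales reads without that division, Ctsb had a mean of 14951 and Ctsd of 10912.

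**Figure D1:**
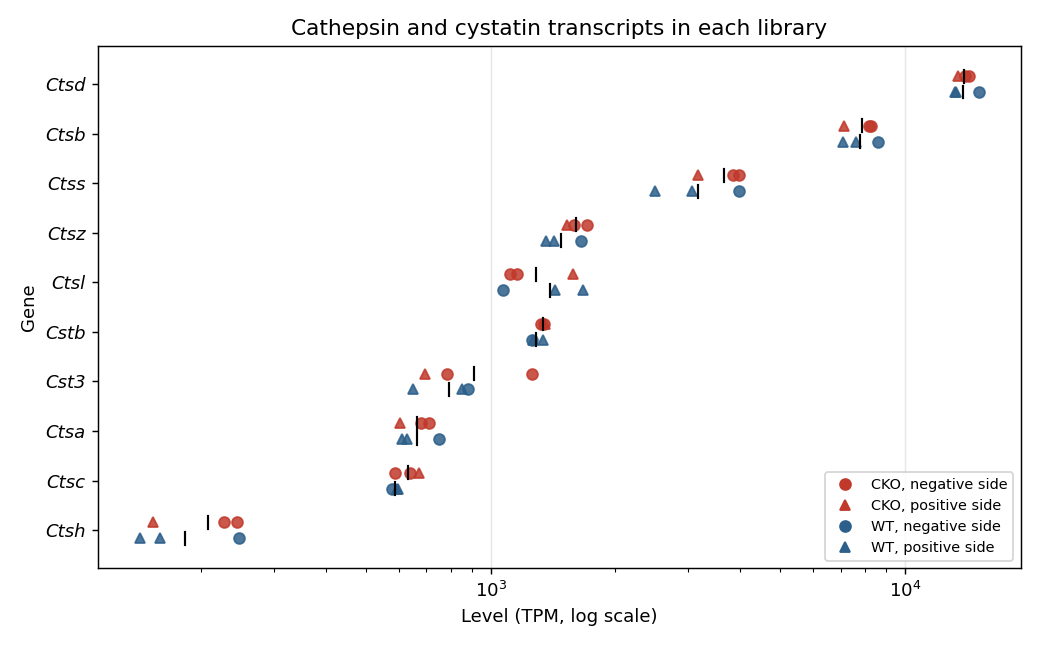
Level of each gene in TPM (log scale) in the 6 libraries, with red points for the libraries labelled CKO, blue points for WT, circles for the negative and triangles for the positive side of the first component, and black ticks at group means. Red and blue points overlap for all 10 genes, and Ctsh spans 143 to 248 TPM while Ctsd spans 13155 to 15027 TPM.

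The comparison of genotype asks whether lysozyme-Cre together with floxed PD-L1 goes with altered expression. Cd274 RNA over the whole gene did not show a loss, with a log2 difference, CKO minus WT, of 0.24 ± 0.22 (SE). Over all 13722 genes tested with limma on log2(TPM + 0.1), 0 passed an adjusted p under 0.05 (0%), and 299, or 2.18%, had an unadjusted p under 0.05. Of the 10 cathepsin and cystatin genes 0 rose and 0 fell, and 0 had an unadjusted p under 0.05. Their log2 difference, CKO minus WT, was positive for 9 and negative for 1, with a median of 0.080, against a median of 0.0026 over all genes tested. With a term for the side in the fit, it was positive for 6 and negative for 4, and of the negative side's libraries 2 are labelled CKO and 1 WT. The groups overlapped for all 10, where they do not overlap for 5.12% of the genes tested. Each 95% interval of the difference lay between -0.61 and 0.81, so an average change beyond 1.76-fold up, or down to below 0.657 of the WT level, lies outside every interval. Ctsb, Ctsc, Ctsz and Ctsa overlap a gene on the other strand, and without the strand setting of the counting their reads cannot be told apart from those of that gene. In the authors' deposited table, where 0.265% of genes are called, none of the 10 is called (adjusted p = 1.0 for each), with log2 fold changes from -0.11 (Ctsl) to 0.21 (Ctss). A bulk library cannot tell fewer cells of a type from less RNA per cell.

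Cathepsin B is the most read transcript of the cysteine group. Ctsb (mm10 chr14:63122462-63145923, plus strand; all positions here are of that build) had 8179.6, 8281 and 7122 TPM in CKO 1 to 3 and 7622, 7089.6 and 8576 TPM in WT 1 to 3. CKO 3 and WT 2 were low and alike, and WT 3 was the highest of all. The log2 difference was 0.019 ± 0.15 (SE; limma, adjusted p = 1.0), with -0.059 within the negative and -0.046 within the positive side. Behind each value stood 765537 to 1164474 reads, so counting error is small beside the spread between libraries.

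Cathepsin S stays active at neutral pH and is a protease of antigen-presenting cells. Ctss (chr3:95526786-95556405, plus strand) had 3844, 3971 and 3157 TPM in CKO 1 to 3 and 2484, 3055 and 3965 TPM in WT 1 to 3. WT 1 was the lowest library, and WT 3 matched CKO 1 and CKO 2. The log2 difference of 0.23 ± 0.20 was the largest of the 10 and did not pass (limma, adjusted p = 1.0). Within the negative side it was -0.021, and within the positive side 0.20. Leaving out WT 1 gave 0.064, and leaving out WT 3 gave 0.40.

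Cathepsin L is a broad endopeptidase of the lysosome. Ctsl (chr13:64363214-64370306, minus strand) had 1114, 1157 and 1584 TPM in CKO 1 to 3 and 1431, 1666 and 1072 TPM in WT 1 to 3. CKO 1, CKO 2 and WT 3 were low, the reverse of Ctss. Its log2 difference was the 1 negative value, -0.11 ± 0.21 (limma, adjusted p = 1.0), with 0.082 within the negative and 0.037 within the positive side.

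Cathepsin H is an aminopeptidase. Ctsh (chr9:90054267-90076095, plus strand) had 245, 227 and 153 TPM in CKO 1 to 3 and 159, 143 and 248 TPM in WT 1 to 3. The levels fell into a high set (CKO 1, CKO 2 and WT 3) and a low set (CKO 3, WT 1 and WT 2) with a gap between 159 and 227 TPM, and each set held both genotypes. The log2 difference was 0.20 ± 0.26 (limma, adjusted p = 1.0), with -0.072 within the negative and 0.025 within the positive side. It was 0.041 without WT 2 and 0.44 without WT 3. Leaving out both CKO 3 and WT 3 gave 0.64 (limma, adjusted p = 0.023), but genotype and side then coincide and cannot be told apart. In that fit 1400 of all 13722 genes tested passed.

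Cathepsin Z is a carboxypeptidase, and cathepsin C, a dipeptidyl peptidase, activates the serine proteases of neutrophil granules. Ctsz (chr2:174427494-174438992, minus strand) had 1703, 1584 and 1526 TPM in CKO 1 to 3 and 1362, 1421 and 1653 TPM in WT 1 to 3. WT 3 lay inside the range of the libraries labelled CKO and the other WT libraries below it, for a log2 difference of 0.12 ± 0.11 (limma, adjusted p = 1.0). Ctsc (chr7:88278093-88310875, plus strand) had 587, 639 and 672 TPM in CKO 1 to 3 and 593, 597 and 577 TPM in WT 1 to 3. CKO 2 and CKO 3 lay above the WT libraries and CKO 1 within them, for a log2 difference of 0.10 ± 0.084 (limma, adjusted p = 1.0). It was 0.086 within the negative and 0.18 within the positive side.

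The other 2 cathepsins use other chemistry. Cathepsin D is the main aspartic protease of the lysosome, and Ctsd (chr7:142375916-142387870, minus strand) had 14238, 13955 and 13438 TPM in CKO 1 to 3 and 13229, 13155 and 15027 TPM in WT 1 to 3. WT 3 was the highest and WT 2 the lowest, and the highest was 1.14 times the lowest. Cathepsin A is a serine carboxypeptidase that also protects beta-galactosidase and neuraminidase. Ctsa (chr2:164832872-164841032, plus strand) had 709, 679 and 604 TPM in CKO 1 to 3 and 627, 611 and 749 TPM in WT 1 to 3, again with WT 3 the highest. The group means of both genes nearly coincided, with 13877 ± 406 against 13804 ± 1060 TPM for Ctsd and 664 ± 54.1 against 662 ± 75.2 TPM for Ctsa (SD, n = 3 each). Their log2 differences were 0.010 ± 0.16 and 0.0066 ± 0.11 (limma, adjusted p = 1.0 for both). Within the negative and the positive side they were -0.092 and 0.027 for Ctsd and -0.11 and -0.036 for Ctsa. The SE draws on the spread of genes of like level, and for Ctsd it is wide beside the gene's own SD of 0.074 over the 6 libraries on the log2 scale.

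The 2 cystatins differed in how steady they were. Cstb (chr10:78425670-78427622, plus strand) had 1319.5, 1347 and 1355 TPM in CKO 1 to 3 and 1266, 1340.2 and 1255 TPM in WT 1 to 3. The highest library was 1.08 times the lowest, and the log2 difference was 0.059 ± 0.085 (limma, adjusted p = 1.0). Cst3 (chr2:148871732-148875468, minus strand) had 1256, 784 and 693 TPM in CKO 1 to 3 and 853, 648 and 880.0 TPM in WT 1 to 3. CKO 1 stood above the other 5 libraries, which lay within 648 and 880.0 TPM. The ratio of Cst3 to Cstb in TPM was accordingly 0.952 in CKO 1 and 0.484 to 0.701 in the other 5. The log2 difference of 0.16 ± 0.24 (limma, adjusted p = 1.0) became -0.094 without CKO 1.

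**Figure D2:**
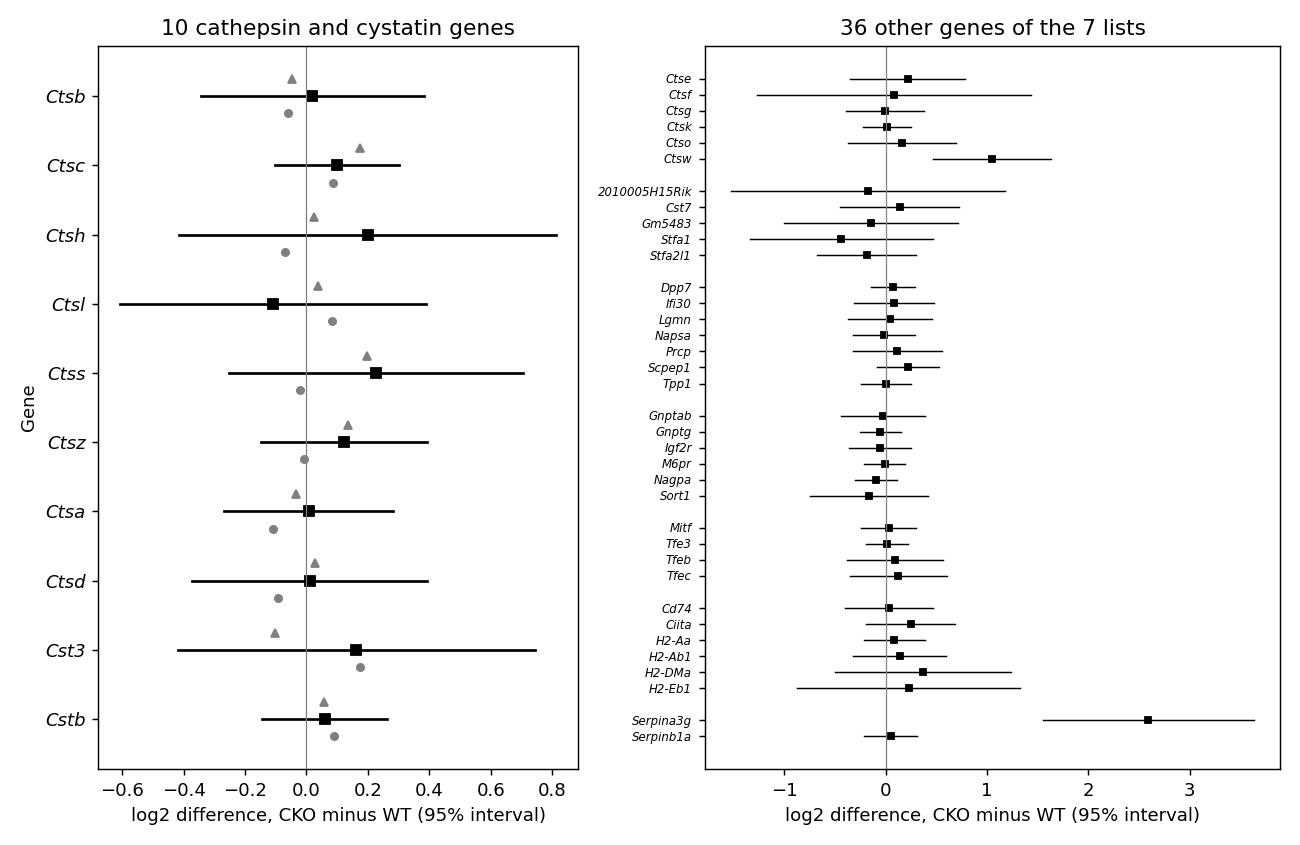
Squares give the log2 difference, CKO minus WT, with its 95% interval from limma; the left panel shows the 10 genes, with grey circles and triangles for the difference within the negative and the positive side, and the right panel the 36 tested genes of 7 related lists. All 10 intervals on the left include 0, and on the right those of Ctsw and Serpina3g lie above 0.

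The spread over the 6 libraries set the genes apart from one another. On the log2 scale the SD was 0.37 for Ctsh, 0.34 for Cst3, 0.28 for Ctsl and 0.27 for Ctss. Among 1986 genes with a mean of at least 100 TPM, these values exceeded those of 94.4%, 93.0%, 86.6% and 86.1%. Cstb at 0.048 exceeded 3.83% and Ctsd at 0.074 exceeded 16.5%, so the inhibitor Cstb was among the steadiest abundant transcripts. The median SD was 0.13 for the 10 genes and 0.14 for those abundant genes.

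Part of that spread lay between the sides of the first component, which was computed without these 10 genes and the related lists. For 6 of the 10 (Ctsa, Ctsb, Ctsd, Ctsh, Ctss and Ctsz) each library of the negative side was above each of the positive side, and for Ctsl the order was the reverse. Over all genes tested the sides did not overlap for 47.3%, with 22.7% higher throughout the negative side and 24.6% throughout the positive side. Ctsc, Cst3 and Cstb overlapped between the sides. The ratio of Ctsl to Ctsh in TPM was 4.55, 5.10 and 4.33 in CKO 1, CKO 2 and WT 3 and 10.3, 8.98 and 11.7 in CKO 3, WT 1 and WT 2, so the balance of these 2 cathepsins differed over 2-fold between libraries of 1 genotype. The ratio of Ctsl to Ctss ran from 0.271 to 0.291 on the negative side and from 0.502 to 0.576 on the positive side.

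Some markers of cell types also differed between the sides. Of the 10 marker lists, 3 sums were higher throughout the negative side (macrophage and monocyte, neutrophil, megakaryocyte), 1 throughout the positive side (erythroid), and 6 overlapped. Most of the megakaryocyte sum was Pf4 (701 to 1036 TPM), the only gene of that list higher throughout the negative side. Its other genes, Itga2b, Gp9, Gp1bb and Ppbp, overlapped between the sides. The macrophage and monocyte list summed to 5768 to 5959 TPM on the negative side and 4773 to 5539 TPM on the positive side. Of 11 neutrophil markers 10 are in the table, none at 0 in all libraries, and they summed to 7886 to 8546 TPM on the negative and 5894 to 7276 TPM on the positive side, most of it the calgranulin genes S100a8 and S100a9. Single markers were divided: 4 of the 8 macrophage and monocyte markers and 6 of the 10 neutrophil markers, Mpo and Elane of early granules among them, overlapped between the sides. The 4 neutrophil markers higher throughout the negative side were S100a8, S100a9, Ltf and Mmp8. Ngp, the most abundant of the other neutrophil markers, was highest in WT 1 of the positive side (992 TPM). By genotype the neutrophil sums overlapped, with 7085 to 8205 TPM in the libraries labelled CKO and 5894 to 8546 TPM in WT. The part of these cells in the cathepsin levels was not tested.

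**Figure D3:**
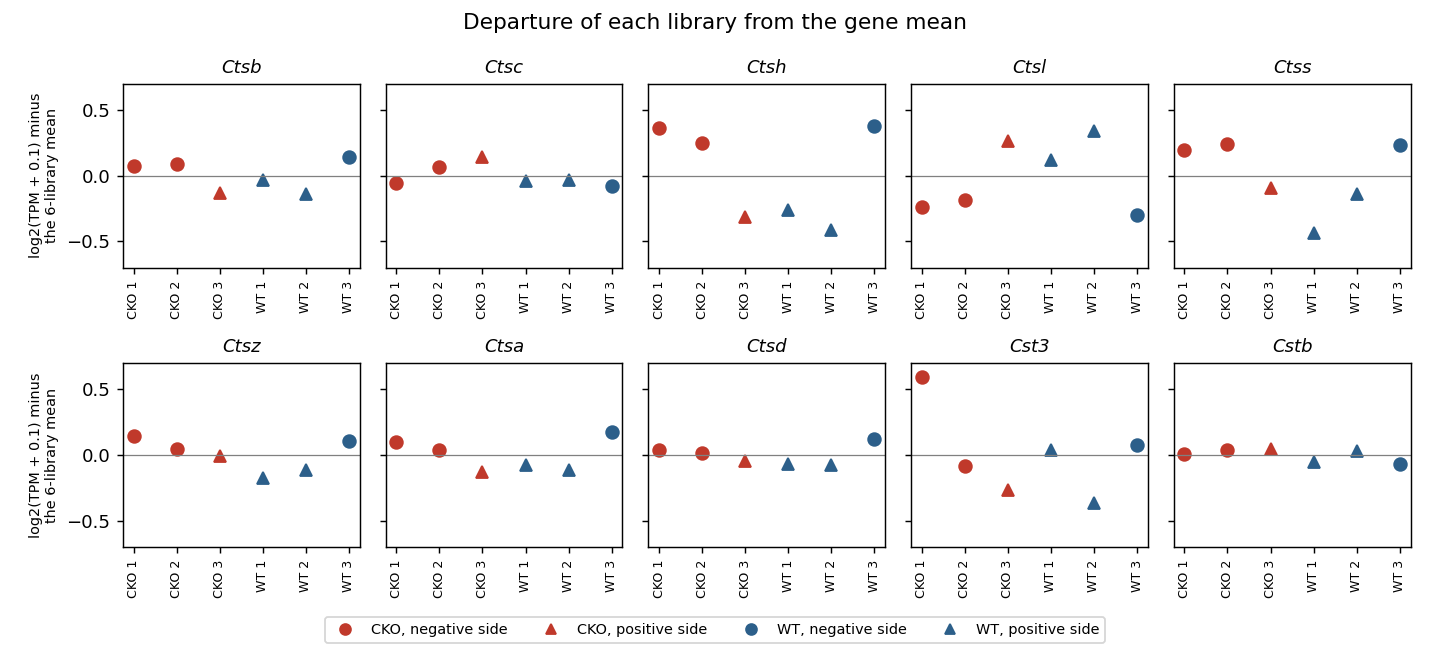
Each panel shows 1 gene, with log2(TPM + 0.1) of each library minus the mean of the 6 on the vertical axis, red for the libraries labelled CKO, blue for WT, circles for the negative and triangles for the positive side. Ctsh and Ctsl show opposite orders of circles and triangles, Cst3 has 1 high library (CKO 1), and Cstb stays near 0.

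In TPM the RNA of the cysteine cathepsins together exceeded that of the cystatins in every library. The size of the ratio rests on the division by length: in mean CPM Ctsb alone had 14951, Cst3 255 and Cstb 319. Protein was not measured. The 6 cysteine cathepsins summed to 15672, 15859 and 14215 TPM in CKO 1 to 3 and 13652, 13973 and 16091 TPM in WT 1 to 3. Cst3 and Cstb summed to 2576, 2132 and 2047 TPM in CKO 1 to 3 and 2119, 1988 and 2135 TPM in WT 1 to 3. The ratio of the sums was 6.82 ± 0.69 in the libraries labelled CKO and 7.003 ± 0.55 in WT (SD, n = 3 each). CKO 1 was lowest at 6.08, with its high Cst3, and WT 3 highest at 7.54. The difference of the log2 ratios, -0.040, was smaller than the SD of 0.13 within groups.

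**Figure D4:**
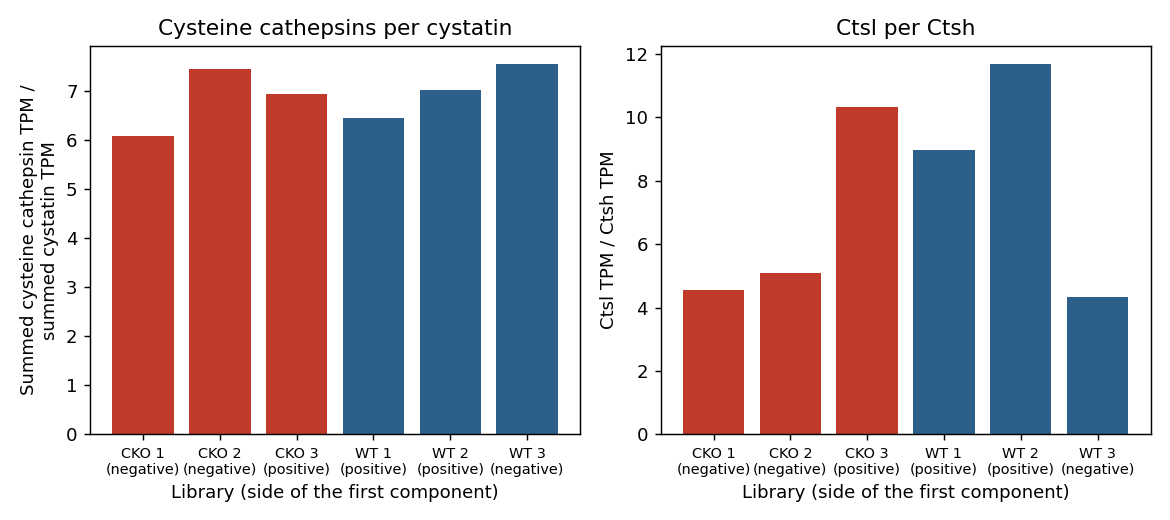
Bars from 0 give, for each library, the summed TPM of 6 cysteine cathepsins over that of 2 cystatins (left) and Ctsl TPM over Ctsh TPM (right), red for the libraries labelled CKO and blue for WT. The left ratio stays between 6.08 and 7.54, and the right one is 4.33 to 5.10 in CKO 1, CKO 2 and WT 3 and 8.98 to 11.7 in CKO 3, WT 1 and WT 2.

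The genes whose pattern over the 6 libraries was most like each of the 10 were sought among genes with a mean of at least 10 TPM, by the root mean square difference of log2 values centred on each gene's mean. Ctsb and Ctsa were each other's closest member, at 0.035, and Ctsd was closest to Ctsa, at 0.054. For Ctsb 58 other genes were as close as Ctsa or closer, the closest being Cd93, a receptor of myeloid cells, at 0.019. Ctsh was far from its closest member (Ctss, 0.185) and close to Gng2, a G protein subunit, at 0.029. Gng2 had 219, 212 and 137 TPM in CKO 1 to 3 and 143, 133 and 220.0 TPM in WT 1 to 3, in the order of the sides. Ctsl was farthest of the cathepsins from any other member (Ctsc, 0.23), and its closest gene was Dph5 at 0.020. Genes outside the 10 as close as the closest member or closer numbered 52 for Ctsa, 383 for Ctsd, 631 for Ctsh and 3651 for Ctsl.

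Of the 10 genes 7 have promoter entries in RefSeq (GRCm38.p6, the build of mm10), 8 windows in all, each from 250 bases before to 50 after a start. The windows were searched on both strands, and matches of different motifs may overlap. The letters CACGTG, the core of the element bound by the lysosomal transcription factor TFEB, were in the windows of Ctsa, Ctsd and Ctsl and in 7.15% of all 32851 windows. TCACGTG was in those of Ctsa and Ctsd (3.77% of all), and the same letters with a G added before and AC after were in none of the 8 (0.326% of all). GAGGAAGT, a form of the site of the macrophage factor PU.1, was in those of Ctsc and Ctss (3.20%). GAAA, any 2 bases and GAAA again, the pattern of interferon-stimulated elements, was in that of Ctss (3.44%). A match is a description of letters and not a site. The stretches of Ctsd, whose level followed the negative side, of Ctss, with the largest difference by genotype, and of Ctsc, which overlapped between the sides, are shown as an example of each kind of match. Each lies upstream of the start and outside annotated exons, with matches in capitals (CACGTG in Ctsd, the GAAA pair in Ctss, GAGGAAGT on the other strand in Ctsc).
Ctsd, chr7:142388039-142388077, minus strand: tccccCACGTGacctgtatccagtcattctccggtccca
Ctss, chr3:95526666-95526783, plus strand: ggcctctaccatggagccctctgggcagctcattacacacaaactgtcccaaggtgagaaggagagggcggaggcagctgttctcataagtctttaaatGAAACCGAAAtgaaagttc
Ctsc, chr7:88277885-88277954, plus strand: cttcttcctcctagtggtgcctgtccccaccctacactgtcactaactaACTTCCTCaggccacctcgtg

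Of the 62 genes on 7 related lists, 42 are in the table and 36 were tested, and 0 rose and 0 fell. Among the other cathepsins 6 of 14 were tested, with log2 differences above 0 for 5 and below 0 for 1 (median 0.12). Ctso, the most abundant, had 61.4, 61.4 and 42.2 TPM in CKO 1 to 3 and 41.7, 42.6 and 64.7 TPM in WT 1 to 3, high on the negative side like Ctsh. Ctsk, the collagen-degrading protease of osteoclasts, had 22.0 to 26.4 TPM and 23.8 to 24.8 TPM in the libraries labelled CKO and WT. Ctsg, a serine protease of neutrophil granules, had 31.7 to 40.6 TPM and 29.1 to 41.7 TPM, and Ctse, an aspartic protease, 4.06 to 5.59 TPM and 3.31 to 5.78 TPM. Ctsf, named after its values were seen, had 10.8, 7.67 and 2.50 TPM in CKO 1 to 3 and 4.54, 4.23 and 9.07 TPM in WT 1 to 3, a 4.31-fold span with each library of the negative side above each of the positive side.

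Ctsw, a cathepsin of cytotoxic lymphocytes, was the 1 other cathepsin of 6 tested whose groups did not overlap (5.12% of all genes tested did not). It had 9, 13 and 9 reads in CKO 1 to 3 and 2, 3 and 5 reads in WT 1 to 3, or 0.247 to 0.385 TPM against 0.077 to 0.142 TPM. The log2 difference of 1.05 ± 0.24 did not pass (limma, adjusted p = 1.0), and it was 0.76 within the negative and 1.18 within the positive side. At so few reads its size rests on the scale: 0.25 with a pseudocount of 1, 1.59 with 0.01 and 1.52 with limma-voom on reads. It belongs to a list of T and NK cell markers, of which 9 of 10 are in the table and none is at 0 in all libraries. Their summed level was 2.38 to 4.74 TPM in the libraries labelled CKO and 0.418 to 1.002 TPM in WT, and Cd3e, which T cells need for their receptor, was at 0 in WT 3. The authors' deposited table, where 0.265% of genes are called, does not call Ctsw. Of this T and NK list it calls Cd3e, Cd3g, Cd8a and Gzmb and not Cd3d, Cd8b1, Ncr1 or Klrb1c. The part of such cells in the Ctsw level was not tested.

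Other inhibitors were scarce beside Cst3 and Cstb. Of 23 further cystatin family genes 5 were tested, with log2 differences above 0 for 1 and below 0 for 4 (median -0.18). Cst7, cystatin F of immune cells, had 14.3, 16.3 and 21.4 TPM in CKO 1 to 3 and 21.7, 14.1 and 12.3 TPM in WT 1 to 3, with overlapping groups. The stefin A genes Stfa2l1, Gm5483 and Stfa1 had at most 6.83, 4.89 and 0.669 TPM and are near copies of each other, so reads may be shared among them. Of the 2 serpins listed, Serpina3g, a serpin known to inhibit cysteine cathepsins, had 4.93, 8.36 and 12.9 TPM in CKO 1 to 3 and 1.01, 0.907 and 2.16 TPM in WT 1 to 3. The groups did not overlap, and the log2 difference of 2.59 ± 0.44 did not pass (limma, adjusted p = 0.82), whereas the authors' deposited table calls it (adjusted p = 3.4e-07). Its highest level was below the lowest level of each of the 6 cysteine cathepsins among the 10 genes. Serpinb1a, an inhibitor of neutrophil serine proteases, had 21.1 to 23.1 TPM and 19.4 to 23.8 TPM in the libraries labelled CKO and WT.

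Partners of the cathepsins in the lysosome did not differ between the genotype labels beyond the spread. The list holds 7 genes, other peptidases and the thiol reductase Ifi30, with log2 differences above 0 for 6 and below 0 for 1 (median 0.075), and 6 were higher in each library of the negative side than in any of the positive side (22.7% of all genes tested were). Lgmn, legumain, which processes several cathepsins, had 2374, 2180.4 and 1764 TPM in CKO 1 to 3 and 1802, 1881 and 2461 TPM in WT 1 to 3. Scpep1, a serine carboxypeptidase, had 513 to 579 TPM and 430.1 to 563 TPM in the libraries labelled CKO and WT, a log2 difference of 0.22 ± 0.13 (limma, adjusted p = 1.0). Dpp7, a dipeptidyl peptidase, and Ifi30 differed by 0.075 ± 0.090 and 0.079 ± 0.16 on the log2 scale. Once the side entered the fit, Lgmn (-0.088) and Ifi30 (-0.044) were below 0, while Scpep1 (0.13) and Dpp7 (0.024) stayed above. The count of 6 above 0 is from the fit without the side, and no such count with the side is given here. Tpp1, Prcp and Napsa, the rest of the list, were named after their values were seen. Inside the negative and then the positive side Tpp1 had -0.096 and -0.034, Prcp -0.056 and -0.025, and Napsa 0.15 and -0.23.

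All 6 genes of mannose 6-phosphate sorting had a negative log2 difference with a median of -0.054, and 0 passed. M6pr and Igf2r, the receptors, had 435 to 487 TPM and 96.0 to 120.3 TPM in the libraries labelled CKO and 440.0 to 482 TPM and 94.8 to 118 TPM in WT. Sort1, an alternative sorting receptor, had 89.4, 87.0 and 49.5 TPM in CKO 1 to 3 and 73.7, 76.4 and 95.7 TPM in WT 1 to 3, with CKO 3 the lowest. Nagpa, which uncovers the sorting signal, differed by -0.094 ± 0.087 on the log2 scale. With a term for the side, M6pr (0.017) and Igf2r (0.045) were above 0 and Sort1 (-0.36) and Nagpa (-0.071) below it. Gnptab and Gnptg, the other genes of this list, were named after their values were seen. Within the negative and the positive side Gnptab was 0.15 and 0.084, and Gnptg -0.071 and 0.012. The 4 MiT transcription factor genes, which drive lysosomal genes, had positive differences with a median of 0.058, and 0 passed. With a term for the side in the fit, all 4 differences were below 0 (Tfe3 -0.038, Tfec -0.042, Mitf -0.038 and Tfeb -0.054). Tfe3 and Tfec were the most abundant (94.3 to 109 TPM and 63.4 to 97.6 TPM), Mitf had 38.7 to 48.3 TPM and Tfeb 19.3 to 30.6 TPM.

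The class II presentation genes, which include the substrate of cathepsin S, had 6 of 6 positive differences with a median of 0.18, and 0 passed. Over all 13722 genes tested 7006 differences were positive. Cd74, the invariant chain, had 189.9, 183 and 146 TPM in CKO 1 to 3 and 211, 136 and 165 TPM in WT 1 to 3, with WT 1 the highest and WT 2 the lowest. H2-Aa, H2-Ab1 and H2-DMa differed by 0.084 ± 0.13, 0.14 ± 0.19 and 0.37 ± 0.36 on the log2 scale, and Ciita, their transactivator, by 0.25 ± 0.18 (limma, adjusted p = 1.0 for each). Leaving out 1 library moved H2-DMa from 0.026 (without WT 2) to 0.65 (without CKO 3) and Ciita from 0.087 (without WT 2) to 0.35 (without WT 1). Within the negative and the positive side Cd74 was 0.18 and -0.22, H2-Aa 0.16 and -0.052, and H2-Ab1 0.21 and -0.0099. H2-DMa was 0.14 and 0.058, and Ciita 0.20 and 0.17. H2-Eb1, named after its values were seen, was 0.24 and -0.30. The sign of the list was therefore not the same on the positive side.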

How the data were processed

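RNA was measured in 6 libraries, 3 labelled CKO and 3 WT. Tools named, per the submitters' processing notes, are TopHat2 2.0.12, featureCounts of Subread, edgeR, Picard 1.127 and FastQC 0.11.2, with the build mm10. What each did, whether counting used strand, and which annotation it used is not given in the sources used here. Deposited by the authors were TPM per gene and library (read from the values, which sum to 1000000 in each). Beside them stand, per the file headers, an adjusted and a raw p-value, a score (the likelihood ratio), the mean log2 CPM and the log2 fold change of the authors' own comparison. Whole reads within 0.01 were recovered from the TPM ratios for 100% of 94034 values above 0, and their total gives the depth. A count of 0 allows up to 3 reads (0.0388 to 0.0573 CPM), for counting error only.

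The genotypes were compared by limma 3.58.1 under R 4.3.3 (mean-variance trend, two-sided, Benjamini-Hochberg over 13722 genes, threshold 0.05) on log2(TPM + 0.1), a scale that understates the change of low genes. The fit was also run on simulated data with planted changes and independent noise. Those data had no division into sides, so that run does not show how the fit performs on these libraries. Permuting 3 against 3 exactly gives 0.1 as its smallest p and was left out. Each p-value reflects variation among these 6 libraries and may be partly technical. The members, lists, motifs and tests were chosen with earlier results of these data known. Named genes are the 10 members, up to 3 most abundant genes and 2 with the smallest p of each list, Cd274, Lyz2 and, for a member, the closest genes. Of 10 lists of cell type markers, those beside a result are given there; the summed levels of the osteoclast, dendritic, mast cell and megakaryocyte lists overlapped between the groups, as did those of the B cell, erythroid and stromal lists.

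Symbols were matched to GENCODE M21 of the same build. Ctsb, Ctsc, Ctsz and Ctsa overlap a gene on the other strand, and Ctss and Ctsd one on their own.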

Additional observations from a re-analysis of the deposited data

How the results depend on the processing

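No gene of the table, none of the 10 cathepsin and cystatin genes and none of the tested genes of related lists passed under 15 of the 16 alternatives (pseudocounts of 1 and 0.01, a filter of 1 TPM and none, median ratio scaling, limma-voom on recovered reads, no mean-variance trend, the replicate block, a term for the side, and each of 6 libraries left out, with 0 calls as the lowest and highest count). Limma-voom made 0 calls, with 311 genes at an unadjusted p under 0.05. That count, 299 in the fit reported, was 168 with the filter of 1 TPM, 487 with none, 1042 with the term for the side, 1017 without WT 3 and 213 to 276 without any 1 other library. The exception left out both CKO 3 and WT 3, where side and genotype coincide: 1400 of all 13722 genes tested, 1 of the 10 (Ctsh) and 6 of 36 list genes passed. Leaving out 1 library changed the sign of some log2 differences, whose ranges were -0.044 to 0.093 for Ctsb, -0.28 to 0.034 for Ctsl, -0.049 to 0.098 for Ctsa, -0.023 to 0.073 for Ctsd, -0.094 to 0.34 for Cst3, -0.14 to 0.12 for Ctsg, -0.039 to 0.093 for Ctsk, -0.032 to 0.38 for Cst7, -0.57 to 0.094 for Gm5483, -0.049 to 0.18 for Lgmn, -0.054 to 0.23 for Ifi30, -0.054 to 0.036 for M6pr, -0.16 to 0.0084 for Igf2r, -0.31 to 0.12 for Sort1, -0.037 to 0.070 for Tfe3, -0.063 to 0.097 for Mitf, -0.092 to 0.24 for Tfeb, -0.12 to 0.20 for Cd74, -0.014 to 0.19 for H2-Aa, -0.028 to 0.30 for H2-Ab1, -0.013 to 0.13 for Serpinb1a. The sign held over these 6 fits, with 0.056 to 0.15 for Ctsc, 0.065 to 0.20 for Ctsz and 0.041 to 0.089 for Cstb. The difference of the log2 ratio of cysteine cathepsins to cystatins was -0.10 to 0.041 when 1 library was left out. With the term for the side the sign changed for Ctsb (-0.053), Ctsh (-0.023), Ctsl (0.059), Ctsa (-0.072), Ctsd (-0.033), Ctso (-0.037), Ctsg (0.049), Ctsk (-0.027), Gm5483 (0.057), Lgmn (-0.088), Ifi30 (-0.044), M6pr (0.017), Igf2r (0.045), Tfe3 (-0.038), Tfec (-0.042), Mitf (-0.038), Tfeb (-0.054), Cd74 (-0.022); with limma-voom for Ctsa (-0.00054); and without both CKO 3 and WT 3 for Cst7 (-0.19), Sort1 (0.23), Serpinb1a (-0.022). The cause was not tested.

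With the replicate block 0 genes passed and 232 had an unadjusted p under 0.05. Same-numbered libraries did not deviate together (correlations of -0.37, -0.29 and -0.64 across genes), and no library correlated best with its own number. Libraries of the same number lie on opposite sides of the first component, so these correlations cannot show whether the numbers pair the samples. The labels do not say whether they do. For the 10 genes, with 5474 reads or more in each library, counting error is small beside the spread between libraries, while for Ctsw, with 2 to 13 reads, it is not. Detection at other depths was not tested.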
